A study of Homo sapiens with 4 samples.

Results

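A549 cells, a human lung adenocarcinoma line, were compared with and without knockdown of TET1 on 1 Illumina bead array each. The comparison covers 2 of the 4 arrays of the study, which also measured the lung cancer line H1299 in the same way. Its members are the 17579 of 47321 probes with a detection p, the array software's test of a probe against negative controls, under 0.01 on at least 1 of the 2 A549 arrays. They carry 13210 named genes, of which 2976 had 2 or more such probes. The groups are A549 cells given siRNA against TET1 and A549 parent cells given vehicle, and likewise H1299 cells given the siRNA and H1299 parent cells given vehicle. No control siRNA array is among them, so effects of siRNA delivery and of TET1 loss cannot be told apart. The labels give no dose, no time after siRNA and no number of cultures. The labels name bronchial epithelium as the source. With 1 array per group there is no replicate error and no test of any difference below, and a count past 2-fold describes these arrays.

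The TET1 enzyme oxidises 5-methylcytosine to 5-hydroxymethylcytosine, which starts active demethylation of DNA. A549 cells carry an inactivating mutation of KEAP1, the adaptor that marks the transcription factor NRF2 for degradation, and therefore keep antioxidant genes highly expressed. Each Illumina probe samples a short stretch of a transcript, so that different probes of a gene read its RNA at different places, and whether they move the same way can be seen even with 1 array per group.

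Both A549 arrays carried the listed markers of this line except the keratin KRT18. The aldo-keto reductase AKR1B10 read 35434 raw signal units in the knockdown and 22601 in the control, against 271.3 in the H1299 knockdown and 412.9 in the H1299 control. The aldehyde dehydrogenase ALDH1A1 read 35627 in the knockdown and 33821 in the control on probe ILMN_2096372. The keratin KRT8 read 16602 and 14886 on the knockdown and control arrays, while KRT18 was undetected on both. SFTPC, NKX2-1 and SCGB1A1, markers of alveolar and airway epithelium, were also undetected on both. Of 20 A549 and lung epithelial markers, 10 were detected on each array, with summed raw signals of 186500 in the knockdown and 153300 in the control. Of 15 markers of blood, endothelial, stromal and liver cells, 4 were detected in the knockdown and 2 in the control, with sums of 7951 and 6946. Both pairs of sums include undetected probes and their background. HBB and ALB, detected in the knockdown only, read 183.2 and 182.7 there and had no direction. PTPRC, PECAM1 and DCN, which define leukocytes, endothelium and fibroblasts, were undetected on both arrays.

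The arrays themselves differed. The knockdown array detected 17107 probes and the control array 13980. Of the members, 13508 were detected on both arrays, 3599 in the knockdown only and 472 in the control only, and their median raw signal was 468.4 in the knockdown and 305.8 in the control. The part of this difference in detection in the counts of higher and lower genes below was not tested. At the edge of the rule, 219 probes lay just inside, at a lower detection p of 0.00909 and a median raw signal of 180.4 in the knockdown and 163.2 in the control, and 197 just outside, at 0.01039, with medians of 179.3 and 159.5.

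Knockdown of the target was visible at a single probe. TET1 probe ILMN_3247163 read 164.5 in the knockdown (detection p 0.08052) and 222.1 in the control (0.0013). TET1 was thus at least 3.06-fold lower (a change of -1.62 log2 units or beyond), with the knockdown below detection. The size depended on the processing, at -0.65 without background correction and -0.25 on the deposited values. The other A549 TET1 probe was undetected on both arrays, so TET1 has no agreement between probes in A549. In bulk RNA, fewer cells that express a gene and less of its RNA per cell cannot be told apart. In H1299 the same probe read 186.8 in the knockdown and 255.9 in the control.

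Per probe, values were background-corrected and quantile normalized on the log2 scale, and an undetected side was held at its detection floor, so that its change is a lower bound. By this measure 2899 of 17579 probes (16.5%) differed at least 2-fold, with 1599 higher in the knockdown (9.1%) and 1300 lower (7.4%). The median probe change was -0.15 log2 units, the quartiles lay at -0.60 and 0.36, and 2108 probes had no measurable direction because the detected side lay below the floor of the other array. Large differences were mostly increases. At least 4-fold, 404 probes were higher and 47 lower, at least 8-fold 107 were higher and 3 lower, and at least 16-fold 38 were higher and 0 lower. How far higher probes outnumbered lower ones depended on the scaling, and among probes detected on both arrays the order turned, with 1098 higher and 1160 lower. With each array centred on its median, 3593 probes were higher and 141 lower at least 2-fold, and the median gene change was 0.35 in place of -0.15. With cyclic loess 2092 were higher and 812 lower, with no background correction 867 and 269, with an offset of 50 1308 and 692, and on the deposited values 580 and 135. Changes of gene groups are therefore given relative to the median of all genes as well.

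**Figure D1:**
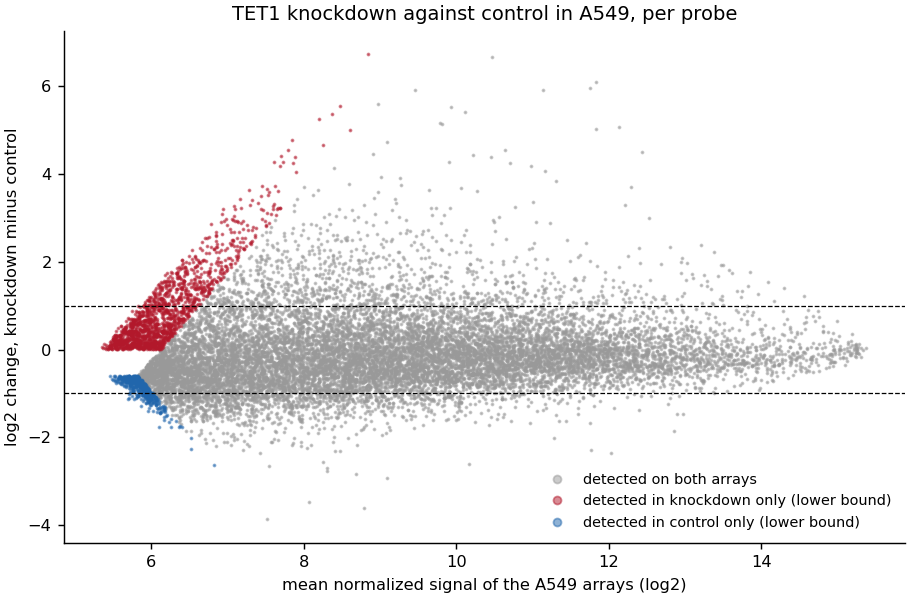
Log2 change of each A549 probe, knockdown minus control, against its mean normalized signal (log2). Grey points were detected on both arrays, red ones in the knockdown only and blue ones in the control only, the last 2 at their bounds, and dashed lines mark 2-fold. The increases past 8-fold (107 probes) outnumber the decreases (3 probes) and spread over most of the signal range.

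Probes of the same gene often disagreed. Of the 2976 genes with 2 or more detected probes, 736 were higher on every probe (24.7%) and 665 lower on every probe (22.3%), while 1042 (35%) had probes of opposite directions and 533 had a probe without a direction. In genes with exactly 2 probes of known direction, the probes' changes lay a median of 0.52 log2 units apart, and 25.7% of 2157 pairs lay at least 2-fold apart. Of 649 genes with at least 1 probe 2-fold higher, 93 had every probe 2-fold higher and 240 had another probe that read lower. The genes with every probe past 2-fold were thus 3.12% of the 2976 in the upward direction and, with 20 genes, 0.672% in the downward direction. At least 2 probes of a gene can share bases of the transcript, which was not tested, since the probe sequences are not used here.

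The largest agreeing increase was in FTL, which encodes the light chain of the iron store ferritin. FTL read 30469 in the knockdown and 446 in the control on probe ILMN_1740429, and 27893 and 438.8 on ILMN_1814823. FTL was thus 68.2-fold and 62.7-fold higher, with both probes detected on both arrays. MRPS27, a protein of the mitochondrial ribosome, read 2155 and 3074 on its probes in the knockdown, against 286.1 and 348.5 in the control (7.74-fold and 8.35-fold). GPX4, the peroxidase that reduces lipid hydroperoxides, read 2402 and 4414 in the knockdown, against 341.5 and 510.3 in the control (6.64-fold and 7.51-fold). Both genes were high in the knockdown and low in the control on either probe.

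The chemokine gene CXCL5, which attracts neutrophils, read 6963 in the knockdown and 1313 in the control on ILMN_2171384 (4.3-fold). Its other probe read 890.3 in the knockdown and was undetected in the control at 162.9 (at least 9.1-fold). CXCL5 was undetected in H1299. The other gene with every probe 2-fold higher and no detection in H1299 was GABRA5, a GABA receptor subunit gene named after its values were seen, at 1.29 and 2.12 log2 units.

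The other leading increases were in genes of varied function. EEF1D, a subunit of the elongation factor complex, read 3303 in the knockdown and 437.4 in the control on ILMN_2408039 (6.65-fold) and was at least 9.36-fold higher on its other probe. The small subunit protein gene RPS9 was 5.67-fold and 5.39-fold higher. RPLP0, of the ribosomal stalk, was undetected in the control on both probes and at least 9.27-fold and 4.09-fold higher. PRMT1, the main arginine methyltransferase, was 22.1-fold higher on one probe and at least 4-fold on the other. RUVBL1, an ATPase of chromatin remodelling complexes, was at least 5.03-fold and 6.84-fold higher. CTTN (cortactin, which binds branched actin) was 5.3-fold and 4.11-fold higher, the adaptor gene CRK at least 4.66-fold and 4.3-fold, and CDV3 at least 7.38-fold and 9.42-fold. Among the 15 leading symbols, RPS2P8, RPS7P10 and LOC441506 are pseudogenes or gene models. RPS2P8 (13.1-fold and 9.81-fold) and RPS7P10 (4.08-fold and 4.53-fold) resemble expressed ribosomal protein genes, so the transcript their probes read is uncertain, and LOC441506 was 35.9-fold and 7.35-fold higher.

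The agreeing decreases were smaller. KANK4, of a family that regulates actin at the cell edge, read 222.5 in the knockdown and 464.6 in the control (6.26-fold lower), and on its other probe was undetected in the knockdown (at least 4.8-fold lower). IGFBP3, which binds insulin-like growth factors in the extracellular space, read 2274 and 1557 in the knockdown, against 5417 and 4325 in the control (3.21-fold and 4.02-fold lower). IGFBP3 had the brightest probes among these decreases, and it was lower on both probes in H1299 as well (-1.02 and -0.88 log2 units). CCN2, a matricellular protein gene induced by TGF-beta and YAP, read 1853 and 920.4 in the knockdown, against 3646 and 1429 in the control (2.79-fold and 2.46-fold lower).

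Further genes lower on every probe included the chemokine scavenger receptor ACKR3, which read 1091 and 314.9 in the knockdown, against 2069 and 387.1 in the control (2.92-fold and 2.58-fold lower). FBLN2, a matrix glycoprotein gene, was 4.1-fold lower on one probe and at least 2.85-fold on the other, and TMEM44 was 3.45-fold and 3.14-fold lower. The Polycomb-associated gene YAF2 was 2.79-fold and 2.9-fold lower, the homeobox genes HOXA2 2.6-fold and 2.53-fold and HOXB6 2.13-fold and 2.12-fold. The raw readings lay closer together. HOXA2 read 229.9 and 259 in the knockdown, against 267.8 and 301.3 in the control. HOXB6 read 208.4 and 417.2 in the knockdown, against 220.7 and 468.7 in the control. DCDC1 (4.11-fold and 2.89-fold), ZNF706, MOCS1 of molybdenum cofactor synthesis, the splicing helicase SNRNP200, LINC00339 and the serpin SERPINB7 complete the list of 15, the last 5 between 2.11-fold and 2.77-fold lower. SNRNP200 read 259.4 and 316.1 in the knockdown, against 273.3 and 377.2 in the control. For such low readings the fold sizes rest on the background correction and the scaling. Under median centring 2 of the 20 decreases stayed past 2-fold on every probe, and all 93 increases did. Without background correction 5 of the decreases and 36 of the increases stayed. With detection required on both arrays 18 and 53 stayed, and on the deposited values 2 and 22. The sizes of both thus depended on the processing. Of the 277 probes with a direction chosen by the rule for named genes, 0 past 2-fold changed direction under an alternative that gave them a value.

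**Figure D2:**
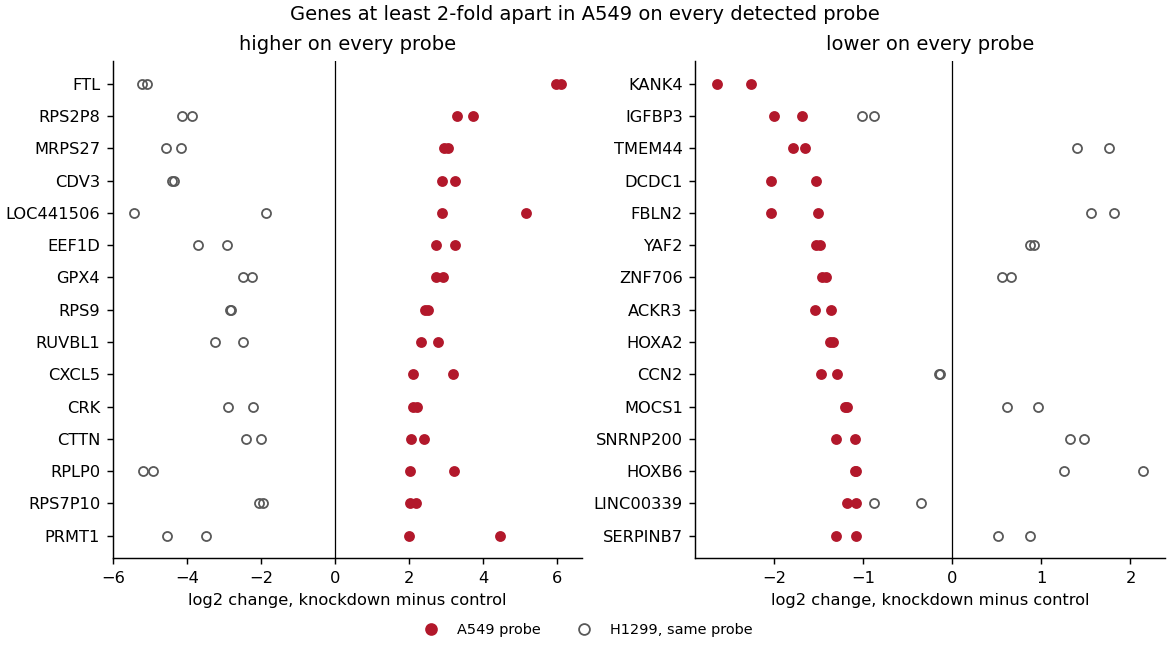
Log2 change, knockdown minus control, for the 15 genes with the largest agreeing increases (left) and decreases (right). Filled points are probes in A549, open points the same probes in H1299 where detected there. FTL stands apart at 5.97 and 6.09 log2 units, and most open points lie on the other side of 0 from the filled ones.

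The changes in H1299 ran against those in A549. Over 13859 probes with a direction in both lines, the changes correlated at -0.77 (Pearson) and -0.73 (Spearman). This is a description across probes, which are not independent and share the 4 arrays and their joint normalization. The lines share no array in these differences. Of 1510 such probes at least 2-fold higher in A549, 1434 (95%) were lower in H1299, and of 1060 at least 2-fold lower in A549, 1017 (95.9%) were higher there. The median gene change in H1299 was 0.27, and the shares of all 13859 probes lower or higher there are not reported here. The Pearson correlation was between -0.75 and -0.76 with median centring, cyclic loess, no background correction or the deposited values. Of the 93 genes with every A549 probe 2-fold higher, 90 had 2 or more detected probes in H1299. Of these, 80 were lower on every H1299 probe and 0 higher on every one. Of the 20 lower genes, 15 had 2 or more detected H1299 probes, with 11 higher on every one and 3 lower. FTL, for example, read 356.3 and 354.2 in the H1299 knockdown and 8365 and 7670 in the H1299 control. The A549 control and the H1299 knockdown thus held the low readings of the same probes. These 2 arrays also detected the fewest probes, 14417 in the H1299 knockdown against 16883 in the H1299 control, beside the A549 counts given above. Their median raw signals over the A549 members were the lowest of the 4 arrays, with 364.7 in the H1299 knockdown and 412.9 in the H1299 control. The part of these differences in the opposed changes was not tested.

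Genes with the same direction on every probe in both lines were few. Among genes with 2 or more detected probes in both, 31 of 698 that were higher in A549 were also higher on every H1299 probe, against 415 that were lower there. Of 594 lower in A549, 37 were lower in H1299 and 387 higher. No gene with 2 or more detected probes in both lines was past 2-fold on every probe in the same direction in both. Among such genes, those with the largest shared size, chosen after their values were seen, were IGFBP3 in the downward and FTH1P11 in the upward direction. FTH1P11, a copy of the ferritin heavy chain gene whose probes may read FTH1, was 0.60 and 1.09 log2 units higher in A549 and 1.61 and 1.70 in H1299.

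**Figure D3:**
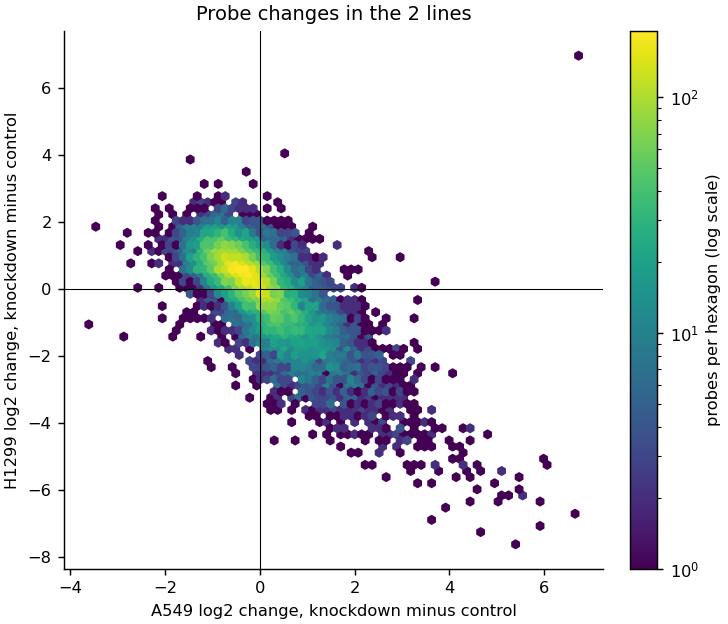
Log2 change of each probe in H1299 against that in A549, knockdown minus control in both, with the number of probes per hexagon on a log colour scale. The 13859 probes fall along a line of negative slope (Pearson correlation -0.77), and the isolated point at upper right is LOC100132564 at 6.72 in A549 and 6.95 in H1299.

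The 8 genes whose probes lay farthest apart in opposite directions included 3 of the cytoskeleton, ACTB, TUBA1C and TUBB. The tubulin gene TUBA1C read 15395 in the knockdown and 221.7 in the control on ILMN_1742167 (102-fold higher), while ILMN_3251341 read 22074 and 24528 (1.23-fold lower). The 2 probes thus gave opposite directions of very different size. TUBB, also a tubulin gene, was at least 32.2-fold higher on ILMN_1665583 and 1.28-fold lower on ILMN_2101885. The 4 probes of EEF1A1, the main elongation factor, read 40820, 26787, 27162 and 1652 in the knockdown, against 24549, 723.9, 1044 and 1643 in the control. Its changes ran from 33.4-fold higher to 1.39-fold lower. For beta-actin (ACTB) one probe was at least 41.6-fold higher and the others 3.59-fold and 1.63-fold lower.

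The remaining genes of this kind were HNRNPK, an RNA-binding protein gene with changes from at least 21.2-fold higher to 2.5-fold lower over 4 probes, and AP2S1, of the clathrin adaptor (at least 19.2-fold higher and 1.28-fold lower). TCP1, of the cytosolic chaperonin, spanned at least 12.3-fold higher to 1.85-fold lower over 3 probes, and the ribosomal pseudogene symbol RPS2P40 at least 19.3-fold higher to 1.06-fold lower. In each of the 8 genes the probe with the largest increase read low in the control, from 136.6 in RPS2P40 to 723.9 in EEF1A1. A single probe does not give the direction of these genes.

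**Figure D4:**
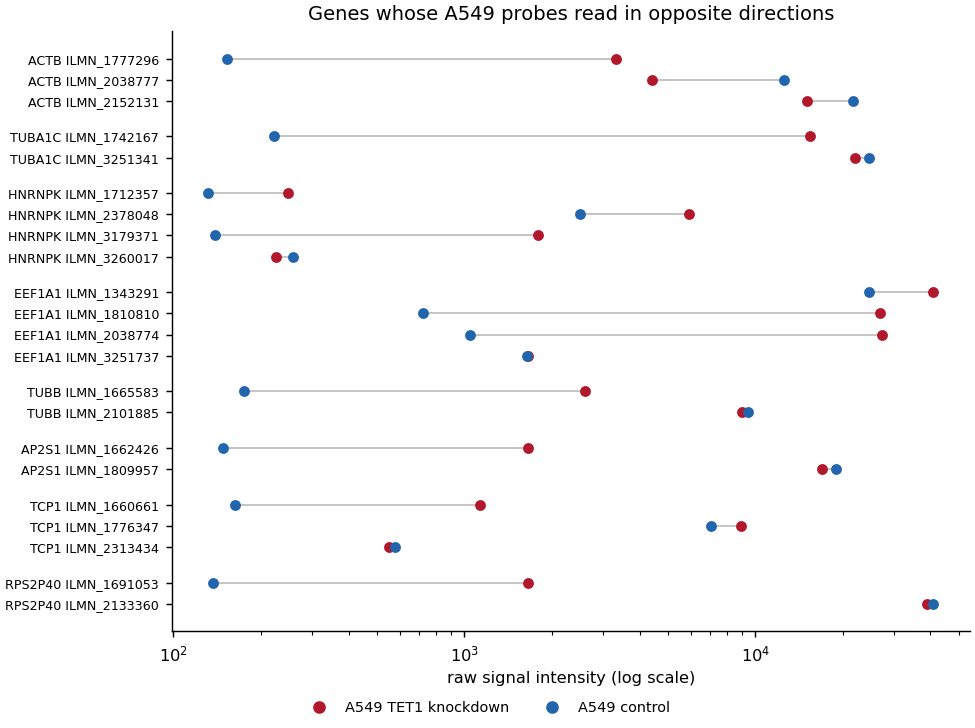
Raw signal intensity (log axis) of each detected probe of the 8 genes whose A549 probes lay farthest apart with opposite directions, in the knockdown (red) and the control (blue). In each gene a probe that is bright in the knockdown reads far lower in the control, beside another probe of that gene with nearly equal or higher signal in the control.

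Genes with a single detected probe have no such check. Of 10234, 811 (7.92%) were at least 2-fold higher and 873 (8.53%) lower. The highest were LOC100132564 (at least 106-fold), the elongation factor gene EEF1G (60.4-fold), LOC388654 (46.3-fold), RPSAP12 (42.8-fold) and EIF4A1P4 (at least 38-fold). The symbols RPSAP12 and EIF4A1P4 are pseudogenes of expressed genes and uncertain. LOC100132564 was higher in H1299 as well, while EEF1G was lower there. The lowest were the calcium pump regulator SLN (14.7-fold), LOC644936 (12.2-fold), the chorionic gonadotropin gene CGB1 (11.1-fold; it has near-identical copies), WFDC21P (7.59-fold) and the dynein light chain gene DYNLT3 (7.17-fold).

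Heat shock and chaperone genes had the highest median among the gene lists. These genes keep proteins folded and are induced by heat shock factor 1, which binds inverted GAA repeats. Of all genes with 2 or more probes, 24.7% were higher on every probe, 22.3% lower and 35% split, the shares to set beside each list count. Of 28 heat shock and chaperone genes 27 were detected, and 10 had 2 or more probes. Among these 10, 5 were higher on every probe, 0 lower, 4 split and 1 without a common direction. The list's median change was 0.86, against -0.15 for all genes, and the difference lay between 0.50 and 1.09 under all settings tried. In H1299 the list's median was -0.99, against 0.27 for all genes there. HSPA8, the constitutive cytosolic HSP70, read 16673 and 19654 in the knockdown, against 4977 and 12642 in the control (2.78-fold and 1.32-fold higher). CHORDC1, an HSP90 partner, was 1.79-fold and at least 1.84-fold higher, and the J-domain genes DNAJB4 at least 3.74-fold and 1.47-fold and DNAJB6 1.11-fold and 2.67-fold. No member reached 2-fold on every probe. Among 17 members with 1 probe, against 7.92% higher and 8.53% lower of all single-probe genes, 8 were at least 2-fold higher, and CRYAB (at least 6.15-fold) and HSPB8 (2.62-fold), small heat shock protein genes, were lower. Probes of a member could also differ widely in size. HSPD1, the mitochondrial chaperonin, named after its values were seen, read 4784 in the knockdown and 513.6 in the control on one probe (a change of 3.02 log2 units), and 27094 and 24140 on another (0.06).

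Promoters of 2 members that were higher on every probe and hold the heat shock motif are shown because the list had the highest median. DNAJB6 has the motif as well and is not printed. Other members with the motif include HSPB8, which was lower, and TCP1, whose probes split. HSPA1B and SERPINH1, each higher on 1 probe, have it too. The motif searched was GAANNTTC, which reads the same on both strands, in the 300 bases of the RefSeq promoter window, from 250 before to 50 after the gene start. It lies in 10 of 25 heat shock list promoters (40%) and in 6.87% of all 27305 promoters. Capitals mark the motif, which is a match of letters and not a shown binding site.
HSPA8 (GRCh38.p14 chr11:123062087-123062386, minus strand): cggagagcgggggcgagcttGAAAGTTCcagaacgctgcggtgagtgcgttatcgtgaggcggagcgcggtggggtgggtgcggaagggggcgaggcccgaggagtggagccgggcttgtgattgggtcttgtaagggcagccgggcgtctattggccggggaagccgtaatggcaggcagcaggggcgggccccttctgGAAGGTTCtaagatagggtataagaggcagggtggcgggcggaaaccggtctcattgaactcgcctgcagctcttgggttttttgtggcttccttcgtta
CHORDC1 (GRCh38.p14 chr11:90223000-90223299, minus strand): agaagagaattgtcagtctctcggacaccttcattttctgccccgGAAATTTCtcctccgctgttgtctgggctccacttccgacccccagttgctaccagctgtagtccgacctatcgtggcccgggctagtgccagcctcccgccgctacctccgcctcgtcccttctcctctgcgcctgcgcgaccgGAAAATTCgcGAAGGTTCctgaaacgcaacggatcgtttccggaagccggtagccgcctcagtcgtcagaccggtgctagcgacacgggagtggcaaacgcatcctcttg

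NRF2 targets, which make glutathione, NADPH and detoxifying enzymes, were also mostly higher. All 35 were detected. Of 11 with 2 or more probes, 7 were higher on every probe, 1 lower, 2 split and 1 without a common direction, and 2 were 2-fold higher on every probe. The median was 0.46, and relative to all genes it lay between 0.30 and 0.61 under all settings. In H1299 the median was 0.48, against 0.27 for all genes there. Beside FTL, GCLC, the catalytic subunit of glutathione synthesis, read 2754 and 542.2 in the knockdown, against 1001 and 221.9 in the control (2.13-fold and 2.3-fold higher). Its modifier subunit GCLM was 1.3-fold and 1.7-fold higher. The thioredoxin reductase TXNRD1 read 9019 and 3019 in the knockdown, against 5072 and 321 in the control (1.44-fold and 9.32-fold higher). Its substrate thioredoxin (TXN) was nearly level, at 19888 and 19369 in the knockdown and 18694 and 18489 in the control. Among 24 members with 1 probe, 6 were 2-fold higher and 0 lower, against 7.92% and 8.53% of all single-probe genes, the heme oxygenase gene HMOX1 reading 3079 in the knockdown and 497.5 in the control.

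TXNRD1 and GCLM, higher on every probe and with the antioxidant response motif in the promoter window, are shown as examples of the NRF2 list. PIR, higher by 0.02 and 0.47 log2 units, has the motif as well and is not printed. The motif TGACNNNGC, searched on both strands, lies in 8 of 24 NRF2 target promoters (33.3%) and in 13.6% of all promoters. The search thus covered 24 promoters for 35 listed genes. FTL, GCLC and HMOX1 are not among the 8, and whether each had a searched promoter is not reported here. Capitals mark it, on the minus strand as its reverse complement.
TXNRD1 (GRCh38.p14 chr12:104215529-104215828, plus strand): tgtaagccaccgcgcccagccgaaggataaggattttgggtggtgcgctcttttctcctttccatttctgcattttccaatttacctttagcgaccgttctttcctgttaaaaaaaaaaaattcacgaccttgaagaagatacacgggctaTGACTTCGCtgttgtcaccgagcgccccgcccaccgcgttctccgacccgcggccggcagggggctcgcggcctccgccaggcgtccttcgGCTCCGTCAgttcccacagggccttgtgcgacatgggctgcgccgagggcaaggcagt
GCLM (GRCh38.p14 chr1:93909381-93909680, minus strand): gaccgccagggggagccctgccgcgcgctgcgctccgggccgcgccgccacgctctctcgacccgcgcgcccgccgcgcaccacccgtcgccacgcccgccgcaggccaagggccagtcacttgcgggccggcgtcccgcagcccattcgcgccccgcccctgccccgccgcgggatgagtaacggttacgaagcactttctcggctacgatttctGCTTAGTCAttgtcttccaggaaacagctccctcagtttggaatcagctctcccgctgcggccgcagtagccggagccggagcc

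Translation factor genes were higher where their probes agreed, while ribosomal, proteasome and unfolded protein response genes included agreeing decreases. Of 16 translation factor genes with 2 or more probes, 7 were higher on every probe, 0 lower and 9 split. The shares of all such genes were 24.7% higher, 22.3% lower and 35% split. The median of the list's 38 genes was 0.46. The helicase gene EIF4A1, which unwinds mRNA leaders, read 17487 and 3756 in the knockdown, against 5713 and 1939 in the control (2.58-fold and 1.5-fold higher), and its cofactor gene EIF4H was 2.7-fold and 1.8-fold higher. Of 31 ribosomal protein genes with 2 or more probes, 7 were higher, 7 lower and 15 split, so the list had no direction. RPL11 read 18782 and 16355 in the knockdown, against 25761 and 22010 in the control (1.51-fold and 1.52-fold lower), beside the higher RPS9 and RPLP0. Their median of 0.06 was 0.21 above that of all genes and 0.03 below it under median centring. Of 12 proteasome genes with 2 or more probes, 6 were higher, 2 lower and 3 split (median 0.10), with the base ATPase gene PSMC6 1.85-fold and 1.97-fold higher. Unfolded protein and integrated stress response genes had 2 members higher, 1 lower and 3 split among 7 (median 0.07). XBP1, which encodes the factor spliced by IRE1, read 2654 and 2208 in the knockdown, against 1072 and 861.1 in the control (1.9-fold and 1.97-fold higher). ATF4 split, at -0.36 and 2.49 log2 units.

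Glycolysis genes had 5 members higher on every probe, 1 lower and 4 split among 10, with a list median of 0.01. The pyruvate kinase PKM was at least 2.47-fold, 21.6-fold and 2.04-fold higher on its 3 probes, and was the one member past 2-fold on every probe. TPI1, which interconverts triose phosphates, was 21-fold higher on one probe and 1.25-fold on the other. Cytoskeleton genes had 4 members higher, 3 lower and 9 split among 18 (median 0.07; 0.01 below all genes under median centring and above them otherwise). The tropomyosin TPM4 was 5.32-fold and 2.09-fold higher, and the myosin light chain MYL6, at 22416 and 21054 in the knockdown and 23161 and 22271 in the control, differed by 1.14-fold and 1.17-fold. Respiratory chain genes had 3 members higher, 5 lower and 3 split among 11 (median -0.20). Succinate dehydrogenase subunit SDHA was 4.41-fold and 1.15-fold higher, while UQCRB of complex III was 1.62-fold, 2.16-fold and 1.83-fold lower on 3 probes. The raw UQCRB readings were close, at 416.5, 262.9 and 212.2 in the knockdown and 380.3, 278.4 and 210.3 in the control.

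Mesenchymal and extracellular matrix genes had the lowest median, -0.65, and lay between 0.55 and 0.19 log2 units below all genes under the settings tried. Of 24 detected members, 6 had 2 or more probes, with 1 higher, 1 lower and 3 split. Of 18 members with 1 probe, 7 were at least 2-fold lower and 1 higher, against 8.53% lower and 7.92% higher of all single-probe genes. COL4A1, a basement membrane collagen, read 1919 in the knockdown and 6832 in the control (4.88-fold lower), and COL5A1 read 2304 and 4264 (2.52-fold lower). N-cadherin (CDH2) was 2.1-fold lower and the fibronectin receptor subunit ITGA5 2.49-fold lower. The agreeing members of the list were CCN2 in the downward direction and S100A4, a calcium-binding protein gene, at 1.62-fold and 1.36-fold higher. Epithelial junction and keratin genes had a median of 0.16, with 1 of 7 members higher on every probe, 2 lower, 1 split and 3 without a common direction. EPCAM, a surface adhesion protein, was 1.07-fold to 1.41-fold lower on 3 probes after normalization. Its raw readings were higher in the knockdown, at 310.5, 743.4 and 530.4, against 227.2, 656.1 and 429.4 in the control. The EPCAM direction thus depended on the normalization. The tight junction scaffold TJP1 was 1.35-fold and at least 1.25-fold higher.

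The list of secreted inflammatory factors, which also holds genes of proteins that stay in the cell, had a median of 0.30. Among 7 members with 2 or more probes, 3 were higher (CXCL5, NFKB2 and BIRC3), 1 lower (SOD2) and 3 split. Of these agreeing members only CXCL5 is a secreted factor. Beside CXCL5, NFKB2, a subunit of the noncanonical NF-kappaB pathway, read 373.9 and 396.3 in the knockdown, against 185.4 and 183.6 in the control (2.21-fold and 2.51-fold higher). The inhibitor of apoptosis BIRC3, an NF-kappaB target, was 1.87-fold and 1.43-fold higher. The insulin-like growth factor list (15 genes, median 0.15) had IGFBP3 lower on both probes and the other 2-probe gene without a common direction. Of its 13 genes with 1 probe, 1 was at least 2-fold higher and 1 lower, against 7.92% and 8.53% of all single-probe genes. IGFBP6 read 1749 in the knockdown and 197.8 in the control (13.6-fold higher). IGFBP5 read 188.4 and 222.9 (2.76-fold lower). Interferon and MHC class I genes had 1 member higher, 1 lower and 4 split among 7 (median -0.16). The 2-5A synthetase OAS3 was 2.21-fold and 2.16-fold higher. Immediate early and growth factor signalling genes had 4 higher, 1 lower and 1 split among 6 (median -0.22). MYC read 2885 and 4055 in the knockdown, against 1303 and 2114 in the control (1.69-fold and 1.48-fold higher). The EGF receptor gene EGFR was 2.45-fold and 1.37-fold lower, from raw readings of 242.5 and 1291 in the knockdown and 273.5 and 1205 in the control.

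Probes of DNA replication genes split in 9 of 13 genes and those of mitosis genes in 8 of 16, against 35% of all genes with 2 or more probes. Splits were also frequent among translation factor genes (9 of 16), ribosomal protein genes (15 of 31) and cytoskeleton genes (9 of 18). Of 13 DNA replication genes with 2 or more probes, 1 was higher, 0 lower and 9 split (median 0.19), among them the helicase subunit MCM3, with changes of 2.53 and -0.06 log2 units. The exception was RPA1, which coats single-stranded DNA, at 5.69-fold and 1.08-fold higher. Of 16 mitosis genes, 4 were higher, 3 lower and 8 split (median 0.04). The mitotic kinase AURKA read 6721 and 6078 in the knockdown, against 3392 and 2951 in the control (1.58-fold and 1.64-fold higher). Survivin (BIRC5) was 1.28-fold and 1.39-fold lower, from raw readings of 390.3 and 3772 in the knockdown and 303.3 and 4061 in the control. Among p53 targets and CDK inhibitors 4 were higher, 4 lower and 2 split of 12 (median -0.10). CDKN1B, the p27 inhibitor, was 2.55-fold and 1.17-fold higher, and the stress gene GADD45A 1.74-fold and 1.92-fold lower. Cholesterol and fatty acid synthesis genes had 2 higher, 3 lower and 4 split among 9 (median -0.19). DHCR7, the last step of cholesterol synthesis, read 831.3 and 837.3 in the knockdown, against 189.1 and 239.5 in the control (6.28-fold and 3.49-fold higher), while acetyl-CoA carboxylase (ACACA) was 1.82-fold and 1.76-fold lower.

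The DNA methylation genes, which include the target TET1 itself, had a median of 0.18. Among 5 members with 2 or more probes, 3 were higher on every probe, 1 lower (GADD45A) and 1 split. Among 10 members with 1 probe, UHRF2 (at least 4.4-fold), MBD2 (4.15-fold) and MBD3 (at least 5.1-fold) were past 2-fold in the upward direction. In the downward direction 1 was, TET1. Of all single-probe genes, 7.92% were at least 2-fold higher and 8.53% lower. The maintenance methyltransferase DNMT1 read 9932 in the knockdown and 8553 in the control (1.05-fold lower). The de novo enzyme DNMT3B was 1.04-fold, 1.05-fold and 1.24-fold higher on 3 probes. TET2, TET3, DNMT3A and DNMT3L were undetected on both arrays. The methyl-CpG binding gene MBD1 was undetected in the control and at least 1.47-fold and 1.59-fold higher, and the isocitrate dehydrogenase IDH1, which makes the TET cofactor 2-oxoglutarate, at least 5.12-fold and 1.39-fold higher. Cancer-testis, placental and HOX genes had 1 member higher and 2 lower among 3 with 2 or more probes, and a median of -0.56. PRAME, a cancer-testis antigen, read 3160 and 785.6 in the knockdown, against 1314 and 170.2 in the control (1.83-fold and at least 7.67-fold higher).

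**Figure D5:**
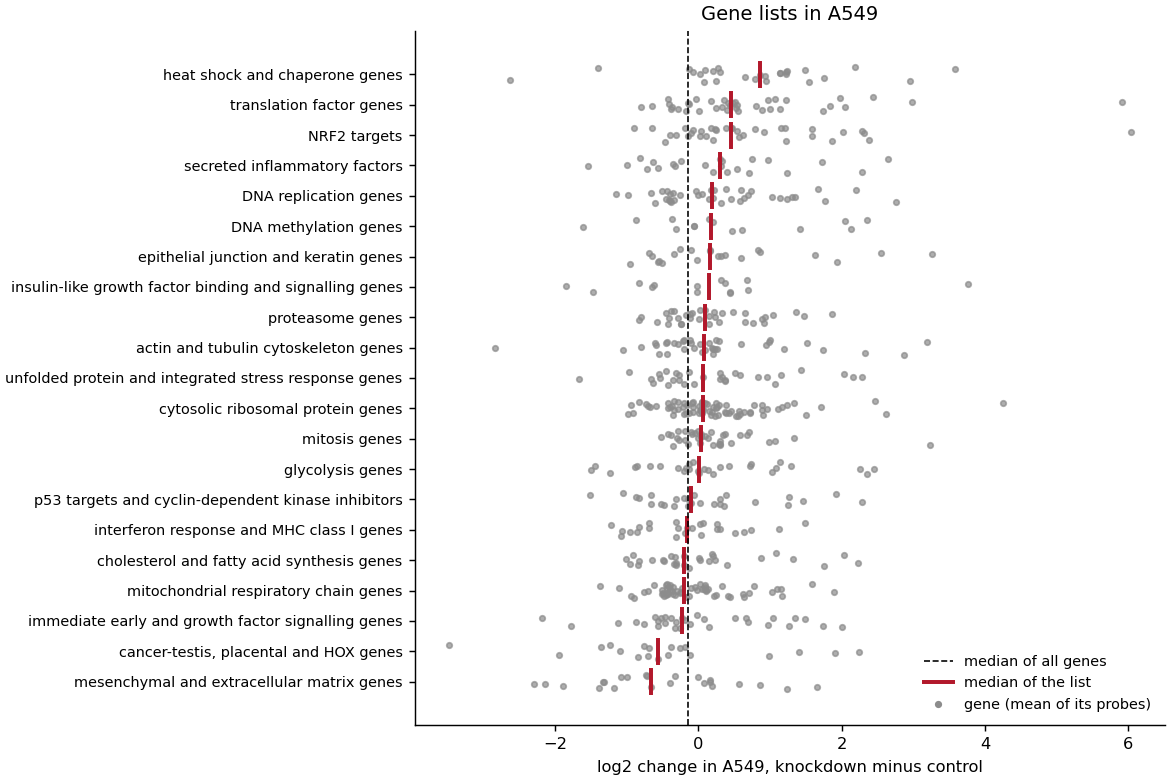
Log2 change in A549, knockdown minus control, of the detected members of 21 gene lists. Each point is a gene as the mean of its probes, red bars are list medians and the dashed line is the median of all genes (-0.15). Heat shock genes (0.86) and mesenchymal genes (-0.65) lie farthest apart, and most members of most lists spread on both sides of the line.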

How the data were processed

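Total RNA was labelled as biotinylated cRNA per the labels' protocols, whose extraction text describes DNA. The deposited table holds, per the file headers, a mean bead signal intensity and a detection p-value per probe and array, not background-subtracted or normalized. A second deposited table holds the authors' values on a log2-like scale, made with lumi per the submitters' processing notes; its transformation is not given in the sources used here. Background was removed from the intensity by normexp, with control-bead moments estimated through the detection p-values. After adding an offset of 16, values were quantile normalized over 4 arrays and log2 transformed (neqc, limma 3.58.1, R 4.3.3; Python 3.11.15, pandas 2.3.3, matplotlib 3.10.9). An undetected side was held at the higher of its own value and the lowest detected value on that array. Bounds below 1-fold got no direction. Symbols were updated through RefSeq (GRCh38.p14, names and promoters only): of 31424 distinct symbols, 17761 were current, 3283 renamed by synonym, 2668 by gene ID, 7685 kept and 27 had become dates. Probes without a symbol (3270) or with a date (54) entered no gene count. In a simulated comparison over 12000 probes, 50 of 50 probes set 8-fold higher, 43 of 50 set 4-fold higher and 50 of 50 set 4-fold lower came out past 2-fold. The simulated arrays shared the same background and baseline, and only brighter probes were changed. It therefore does not cover arrays that differ in detection, or control readings near background. Calls among unchanged simulated probes are not reported here.

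The members and lists were chosen with earlier results of these data known. Named genes were TET1, the TET and DNMT genes, the 15 largest agreeing changes each way by their smallest probe, up to 4 agreeing members of a list each way, the 8 widest splits and the 5 extreme single-probe genes each way. Single-probe or split members of lists and FTH1P11 were chosen after their values were seen. The list symbols CDK1, MYL12B and CGB3 were not matched, because the older symbols under which the files hold them are ambiguous, and DDX58 is an older name of RIGI, also listed. There were 11 alternatives. Arrays limit precision by their number, 1 per group. Results for a few list members are not reported here.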

Additional observations from a re-analysis of the deposited data

Results flagged for a closer look

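Among the 30 leading agreeing genes, 21 read in the opposite direction on every detected probe in H1299. CXCL5, KANK4, DCDC1, ACKR3 and HOXA2 had no detected probe there. The opposition was not particular to these genes. Of all probes with a direction in both lines, 95% of those at least 2-fold higher in A549 were lower in H1299. Of those at least 2-fold lower in A549, 95.9% were higher in H1299. The shares of all probes lower or higher in H1299, where the median gene change was 0.27, are not reported here. With 1 array per group the difference between lines was not tested. The mean changes of the genes higher in A549 were 6.03 in A549 and -5.14 in H1299 for FTL, 3.50 and -4 for RPS2P8, 3.01 and -4.37 for MRPS27, 3.06 and -4.39 for CDV3, and 4.02 and -3.65 for LOC441506. They were 2.98 and -3.31 for EEF1D, 2.82 and -2.38 for GPX4, 2.47 and -2.82 for RPS9, 2.55 and -2.86 for RUVBL1, and 2.16 and -2.02 for CRK. They were 2.22 and -2.2 for CTTN, 2.62 and -5.06 for RPLP0, 2.1 and -2 for RPS7P10, and 3.23 and -4.02 for PRMT1. Of the genes lower in A549, TMEM44 had -1.72 in A549 and 1.58 in H1299, FBLN2 -1.77 and 1.69, YAF2 -1.51 and 0.895, and ZNF706 -1.44 and 0.609. SNRNP200 had -1.2 and 1.4, HOXB6 -1.09 and 1.7, and SERPINB7 -1.19 and 0.687.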

How the results depend on the processing

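Counts past 2-fold depended on the processing. The count of reversals below covers only named probes past 2-fold. The median gene change went from -0.15 as reported to 0.35 with median centring, so directions of small changes depend on the scaling. As reported, 1599 probes were higher and 1300 lower, and 93 genes were higher and 20 lower on every probe. With arrays centred on their medians the probe counts were 3593 and 141 and the gene counts 263 and 2. With cyclic loess 812 probes and 11 genes were lower. Without background correction 867 probes were higher and 269 lower, with 36 and 5 genes. With an offset of 50, 692 probes and 12 genes were lower. Requiring detection on both arrays left 55 genes higher, and reading undetected values without a bound gave 146. On the deposited values 580 probes were higher and 135 lower, with 23 and 2 genes. Asking for 2 probes past 2-fold and none opposite gave 31 lower genes. The other counts stayed within 1.5 times. Of the 93 higher genes, 93 stayed with median centring and 22 on the deposited values. Of 2452 alternative values of 277 named probes, 2214 kept their direction and side of 2-fold, 238 moved and 0 past 2-fold reversed. Relative to all genes, the lists for p53 targets, ribosomal proteins, cytoskeleton, cholesterol synthesis, respiratory chain and interferon response changed sign under at least 1 setting. No paired analysis was possible because the A549 comparison has 1 array per group. Signals near background are limited to bounds.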
